A study of Homo sapiens with 6 samples.

Results

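Cells answer a shortage of oxygen through hypoxia-inducible factors (HIFs), and the transcripts of this response were followed here in lung cancer cells exposed to an antidepressant. The 10 genes were HIF1A, the prolyl hydroxylases EGLN1 and EGLN3, and 7 HIF target genes outside glycolysis, which were VEGFA, ADM, CA9, BNIP3, BNIP3L, KDM3A and NDRG1. They were taken by symbol from a count table of 31762 genes, in which each symbol had a single row. H460 is a human cell line from a large cell carcinoma of the lung, labelled wild type. Fluoxetine, a selective serotonin reuptake inhibitor, was given at 20 µM for 24 h in the 3 fluoxetine samples, and 3 samples labelled control were sequenced beside them. The stated culture conditions, shared by all 6, were RPMI-1640 with serum under 5% CO2. No oxygen level is stated, nor what the control samples received. Nothing says that the libraries of a group came from separate cultures, so the p-values measure the spread between these libraries, which may be technical.

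In a cell with oxygen, prolyl hydroxylases of the EGLN family mark the HIF-α protein, and the VHL ubiquitin ligase then sends it to the proteasome. When oxygen falls the protein escapes, pairs with ARNT (HIF-β) and binds short hypoxia response elements near genes for blood vessel growth, pH control, mitophagy and glycolysis. HIF-α is set mainly at the level of protein, so the RNA of HIF1A does not measure HIF activity, and several of its target genes also answer to other stress pathways.

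The core of the hypoxia response element is ACGTG or GCGTG. RefSeq promoter windows on GRCh38.p14 were found for 7 of the 10 genes, and the 250 bases before the annotated start were searched for both words on both strands. At least 1 match was present in 6 of the 7 genes, against 47.4% of the 27305 genes with a window. In 4 of the 6 (ADM, CA9, EGLN1 and KDM3A) the matched bases lie in an exon of the gene in GENCODE release 29, and BNIP3 and HIF1A hold theirs upstream of the exons. BNIP3 held 6 matches, 2 of which overlap in a palindrome, and at least 3 matches were present in 7.76% of 35116 windows. The BNIP3 window of 250 bases is 81.6% G and C, and the shares over all windows and genes were not matched for base composition. ADM, CA9, EGLN1 and KDM3A held 1 match each, that of KDM3A lying in both of its overlapping windows, and EGLN3 had 0. Shown are BNIP3, which had the most matches, and HIF1A itself, with 1 match in the first of its 2 windows, both only as far as the first base of any GENCODE release 29 exon of the gene, which for BNIP3 leaves 160 bases with all 6 matches. Capitals mark the matches, in either orientation, and every sequence is read 5′ to 3′ on the strand of its gene.
BNIP3 (chr10:131982014-131982173, minus strand): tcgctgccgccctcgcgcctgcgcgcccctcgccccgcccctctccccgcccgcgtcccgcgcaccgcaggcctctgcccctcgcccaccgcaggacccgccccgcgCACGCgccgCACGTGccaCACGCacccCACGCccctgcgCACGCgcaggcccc
HIF1A (chr14:61695263-61695512, plus strand): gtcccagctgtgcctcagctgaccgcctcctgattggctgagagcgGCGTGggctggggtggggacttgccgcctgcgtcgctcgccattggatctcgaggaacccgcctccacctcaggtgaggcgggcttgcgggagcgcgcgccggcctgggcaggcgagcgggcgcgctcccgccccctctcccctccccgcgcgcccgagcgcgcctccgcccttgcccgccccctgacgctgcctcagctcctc
A match is a string of letters, and binding was not measured in these samples.

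The libraries held 16157507 to 27823667 counts, and every fluoxetine library was less deep than every control library. Levels are in CPM, a gene's share of the counts of its library, scaled to the usual CPM unit after TMM normalization, and 3 counts, the limit that a count of 0 allows, were worth 0.108 to 0.186 CPM. The cytokeratins KRT8, KRT18 and KRT19 were abundant, as in an epithelial tumour line. In contrast, KRT7 was counted 11 to 20 times per library, EPCAM 4 to 11 times and CDH1 at most 1 time. Control replicate 3, the deepest library, was the control nearest to the fluoxetine mean for 7 of the 9 tested genes, against 48.4% of all tested genes. Values without this library are given beside the results that it decides. Of 8 markers of immune, endothelial, fibroblast and alveolar cells, 6 were in the table and 3 were tested. PTPRC, PECAM1 and SFTPC had at most 3 counts per library. COL3A1 was at 18.3 CPM in control and 12.7 CPM in fluoxetine libraries on average and fell by 0.53 on the log2 scale. The other tested ones, COL1A1 (log2 fold change -0.17, edgeR adjusted p = 0.649) and CD14 (0.20, adjusted p = 0.601), were not called. Among the cytokeratins, KRT18 fell by 0.72 on the log2 scale. The part of these markers in the results was not tested.

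With fluoxetine 2 of the 10 transcripts rose and 1 fell, and the other 6 tested genes did not pass the threshold. BNIP3L (NIX), a receptor that tags mitochondria for mitophagy, rose 1.93-fold, and NDRG1, a cytosolic protein induced by stress and differentiation, rose 1.74-fold. ADM, which encodes the secreted vasodilator peptide adrenomedullin, fell to 0.562 of its control level. HIF1A and KDM3A lay above the control libraries in each fluoxetine library but missed the adjusted threshold by little. EGLN1, EGLN3, VEGFA and BNIP3 did not pass, and CA9 was hardly counted.

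All 15646 genes that passed the filter on low counts were tested together with edgeR's quasi-likelihood test, and a gene was called at a Benjamini-Hochberg adjusted p-value under 0.05. Of the 10 genes, 9 passed the filter and 3 were called (33.3%), against 13.1% of all tested genes. Higher calls made up 7.76% and lower calls 5.32% of all tested genes. Of the 3 called genes, 0 reached a fold change of 2, a size reached by 1.25% of tested genes upwards and 0.147% downwards. In 6 of the 9 genes the groups did not overlap, against 31.9% of all tested genes. The median log2 fold change of the 9 genes was 0.12, against 0.03 for all tested genes. RNA from a bulk sample does not tell fewer cells from less RNA per cell. With 3 libraries a group, an exact permutation test of a single gene cannot give a p-value below 0.1.

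**Figure D1:**
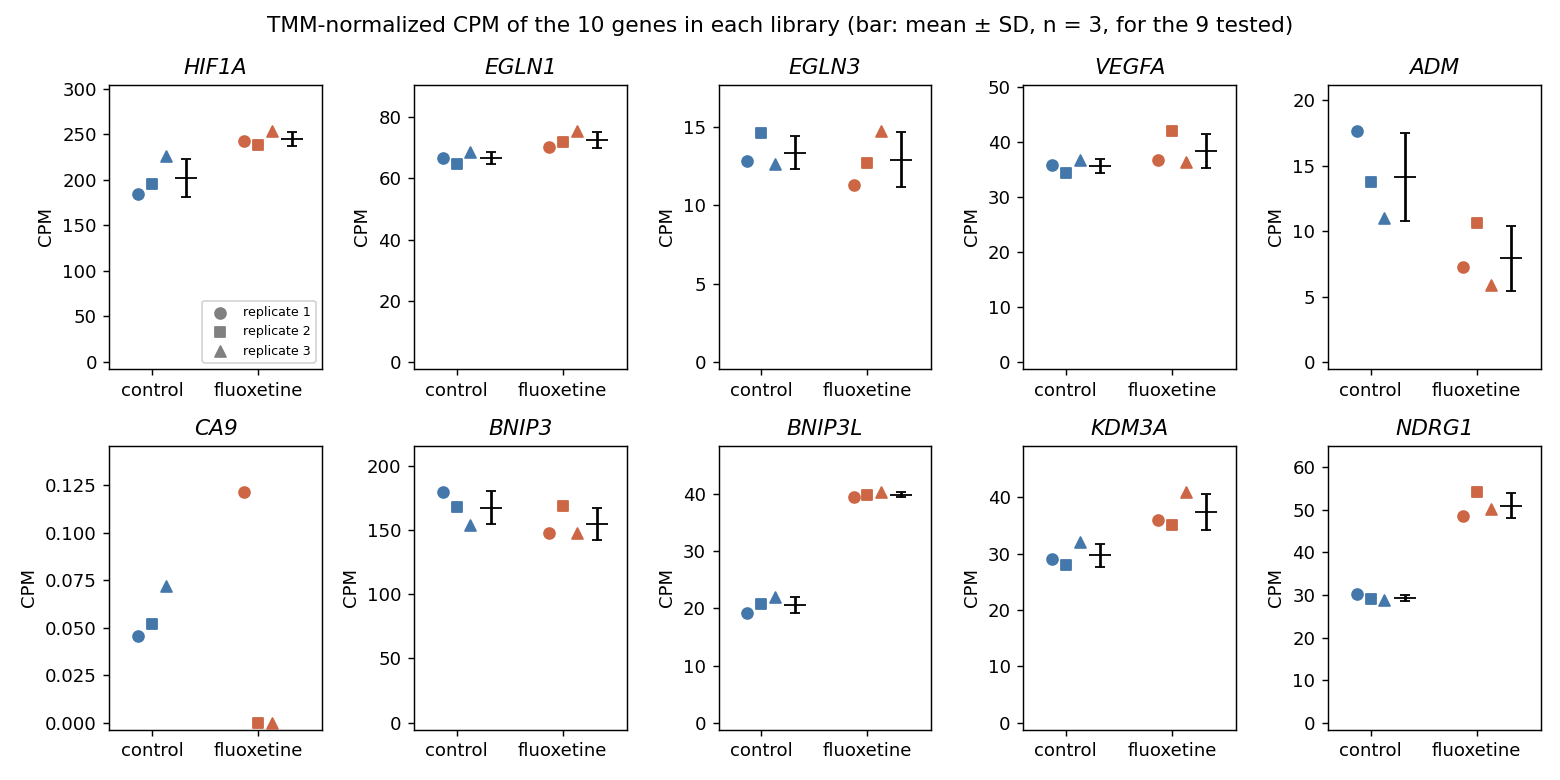
Level of each of the 10 genes (vertical axes, TMM-normalized CPM, each starting just below 0 with its own scale) in 3 control and 3 fluoxetine libraries, with the mean ± SD of each group for the 9 tested genes. BNIP3L and NDRG1 sit in separate bands, at 19.1 to 22.0 against 39.6 to 40.4 CPM for BNIP3L, while the groups of EGLN3, VEGFA and BNIP3 overlap.

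HIF1A encodes the oxygen-regulated subunit HIF-1α (ENSG00000100644, GRCh38 chromosome 14, 61695513 to 61748259, plus strand). Its level was 185, 196 and 226 CPM in the control libraries (here and below in the order of replicates 1, 2 and 3), against 243, 239 and 254 CPM with fluoxetine. All fluoxetine libraries lay above all control libraries, with control replicate 3 closest to them. The mean went from 202 ± 21.3 to 245 ± 7.64 CPM (SD, n = 3 each), a log2 fold change of 0.28 (SE 0.08, edgeR adjusted p = 0.0535). Without control replicate 3 it was 0.33 and passed (edgeR adjusted p = 0.00730), in a fit in which 23.0% of all tested genes were called. Over the 14 alternatives the adjusted p-value lay between 0.00552 and 0.254, and 3 of them were past the threshold (library size alone, the replicate block and the fit without control replicate 3). The overlapping genes HIF1A-AS1 and HIF1A-AS2 were counted less than 3 times per library on average, against 4412 for HIF1A.

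EGLN1 (PHD2) and EGLN3 (PHD3) encode the hydroxylases that mark HIF-α, and both are known as HIF target genes themselves. EGLN1 (ENSG00000135766, chromosome 1, 231363751 to 231425044, minus strand) was at 66.6, 64.8 and 68.8 CPM in the control libraries and at 70.2, 72.0 and 75.5 CPM in the fluoxetine libraries. These ranges did not overlap, but the step was small, a log2 fold change of 0.12 with a 95% interval from -0.04 to 0.29 (edgeR adjusted p = 0.324). EGLN3 (ENSG00000129521, chromosome 14, 33924231 to 34462774, minus strand) was at 12.8, 14.6 and 12.6 CPM in the control libraries and at 11.3, 12.7 and 14.7 CPM after fluoxetine. The range of its fluoxetine libraries was wider and enclosed that of the control libraries. The log2 fold change was -0.05 with an interval from -0.34 to 0.25 (edgeR adjusted p = 0.857). Leaving out fluoxetine replicate 1 turned it to 0.014, so no direction is given. SPTSSA lies inside the annotated span of EGLN3 on the same strand, with 0 exon bases in common, and had a mean count of 2354 (log2 fold change -0.05, edgeR adjusted p = 0.709). The count ratio of EGLN1 to EGLN3 was 5.02 ± 0.520 in control and 5.67 ± 0.546 in fluoxetine libraries (SD, n = 3 each, exact permutation p = 0.3, two-sided).

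Of the secreted products, vascular endothelial growth factor and adrenomedullin, the first did not pass the test and the second fell. VEGFA (ENSG00000112715, chromosome 6, 43770184 to 43786487, plus strand) was at 35.8, 34.4 and 36.8 CPM in control libraries and at 36.8, 42.0 and 36.4 CPM in fluoxetine libraries. The groups overlapped, and fluoxetine replicate 2 was the highest. The log2 fold change was 0.11 with a 95% interval from -0.10 to 0.31 (edgeR adjusted p = 0.509), which reaches up to 1.24-fold. Without fluoxetine replicate 2 the log2 fold change was 0.0034 (edgeR adjusted p = 0.984).

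For ADM (ENSG00000148926, chromosome 11, 10304680 to 10307397, plus strand), 389, 264 and 305 reads were found in the control libraries, against 119, 179 and 101 with fluoxetine. In CPM it was at 17.6, 13.8 and 11.0 in the control libraries and at 7.23, 10.6 and 5.88 in the fluoxetine libraries. The groups touched without overlapping, since fluoxetine replicate 2 was just under control replicate 3. The log2 fold change was -0.83 (SE 0.23, edgeR adjusted p = 0.0371), with a 95% interval from -1.33 to -0.33. ADM was the most variable of the 9 genes, with a coefficient of variation of 23.7% in control and 31.0% in fluoxetine libraries. The call was lost without control replicate 1 (log2 fold change -0.67, adjusted p = 0.107), without control replicate 2 (-0.89, adjusted p = 0.0947), without fluoxetine replicate 1 (-0.79, adjusted p = 0.153) and without fluoxetine replicate 3 (-0.68, adjusted p = 0.0912), all from edgeR. It held in the other 10 alternatives, with fold changes in the same direction throughout.

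Among the receptors of both peptides, the co-receptor NRP1 was well expressed and the others were lower. Of 8 receptor genes, 7 were in the table and 3 passed the filter, and 0 were called by edgeR, by DESeq2 or by limma-voom, with 0 of 3 at an unadjusted p-value under 0.05 in edgeR. The kinase receptor of VEGFA, KDR, was counted at most 1 time per library, and FLT1 0 to 7 times. NRP1 was at 33.9, 35.8 and 39.3 CPM in control and 34.9, 31.4 and 32.1 CPM in fluoxetine libraries (log2 fold change -0.15, edgeR adjusted p = 0.348). NRP1 overlapped between the groups, and 1 of the 3 tested receptors, CALCRL, did not, against 31.9% of all tested genes. CALCRL, the receptor that binds adrenomedullin together with a RAMP protein, had 25 to 37 counts per library (log2 fold change 0.57, edgeR adjusted p = 0.185). RAMP1 was counted at most 4 times per library. RAMP2 had 4, 8 and 5 counts in the control libraries and 1, 0 and 1 in the fluoxetine libraries, too few to be tested.

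CA9, the membrane carbonic anhydrase that acidifies the surroundings of hypoxic tumour cells, had 1, 1 and 2 reads in the control libraries, against 2, 0 and 0 with fluoxetine (ENSG00000107159, chromosome 9, 35673856 to 35681159, plus strand). All libraries were under 3 counts, so no fold change is given, and expression was not detectable above the counting limit at this depth. ARHGEF39, which shares 643 exon bases with CA9 on the other strand, had a mean count of 250.3 (log2 fold change -0.29, edgeR adjusted p = 0.121). Of the relatives of CA9, CA12 was not called (log2 fold change -0.12, edgeR adjusted p = 0.300), and CA2 fell by 0.67 on the log2 scale (edgeR adjusted p = 0.0484), a call that 8 of the 14 alternatives lost, DESeq2 and limma-voom among them.

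The mitophagy receptors BNIP3 and BNIP3L are close relatives, and both are textbook HIF target genes. BNIP3 (ENSG00000176171, chromosome 10, 131966455 to 131982013, minus strand) was at 180, 168 and 154 CPM in control libraries and at 148, 169 and 147 CPM in fluoxetine libraries. Its groups overlapped, and the log2 fold change was -0.11 with a 95% interval from -0.30 to 0.07 (edgeR adjusted p = 0.430). BNIP3L (ENSG00000104765, chromosome 8, 26382898 to 26505636, plus strand) was at 19.1, 20.8 and 22.0 CPM in control libraries and at 39.6, 39.8 and 40.4 CPM in fluoxetine libraries. In CPM every fluoxetine library stood well above every control library. The raw counts did not overlap either, at 652 to 694 against 399 to 610, with control replicate 3 the closest. The log2 fold change was 0.95 (SE 0.09, edgeR adjusted p = 1.56e-04), and it stayed between 0.86 and 0.97 and past the threshold in all 14 alternatives.

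Because both genes were counted in the same library, their ratio needs no normalization. There were 9.39, 8.08 and 7.02 reads of BNIP3 per read of BNIP3L in the control libraries, against 3.73, 4.24 and 3.65 with fluoxetine. The ranges were well apart, with means of 8.16 ± 1.19 and 3.87 ± 0.319 (SD, n = 3 each). The exact permutation p of 0.1 (two-sided) is the smallest that this design allows, 0.133 after Benjamini-Hochberg adjustment over the 4 ratios compared, which were chosen after the values were seen. PNMA2 shares 330 exon bases with BNIP3L on the other strand and had 54.7% of its mean count, with a log2 fold change of 0.27 (edgeR adjusted p = 0.1998). The pseudogene SDAD1P1 shares 56 exon bases and had 2.44% of the count. Whether the counting used strand is not given in the sources used here, so the part of reads from these genes was not tested. The pseudogene copies of BNIP3 in the table each had at most 3 counts on average.

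**Figure D2:**
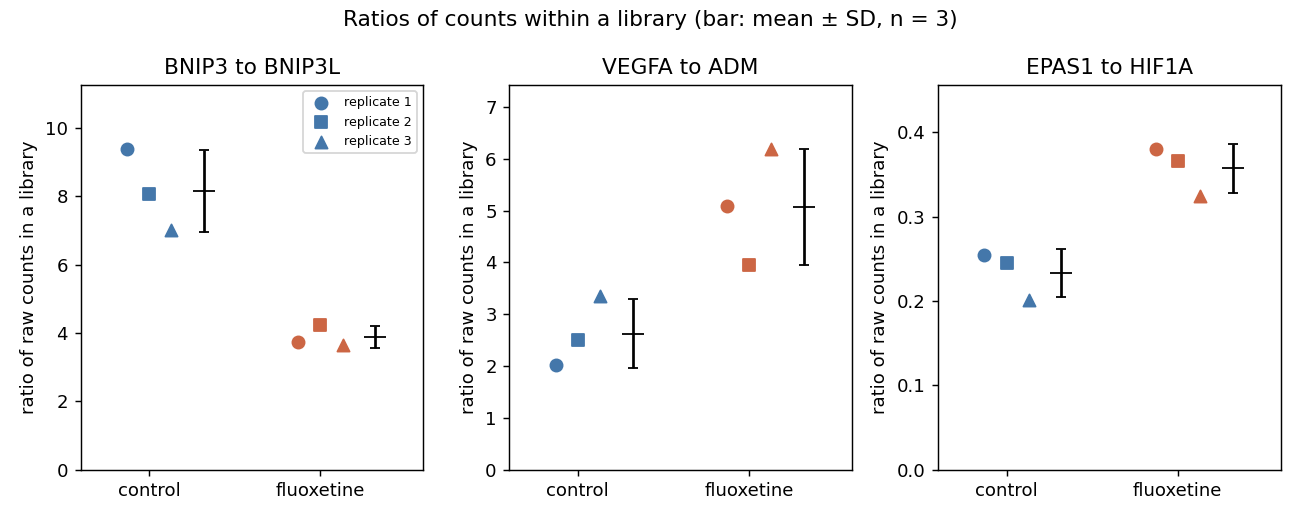
Ratios of raw counts of gene pairs within each library (vertical axes, from 0), for 3 control and 3 fluoxetine libraries, with the mean ± SD of each group. BNIP3 per BNIP3L lies between 7.02 and 9.39 in control and between 3.65 and 4.24 in fluoxetine libraries, and the groups do not overlap in the 3 panels, while the ratio of EGLN1 to EGLN3, which overlapped, is not drawn.

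All 8 genes of a list of other mitophagy genes were tested, with a median log2 fold change of 0.06. PHB2, an inner-membrane receptor, fell by 0.36 on the log2 scale (edgeR adjusted p = 0.0473) with overlapping groups, and 6 of the 14 alternatives lost the call. The kinase PINK1 had a log2 fold change of 0.62 that did not pass (edgeR adjusted p = 0.138).

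KDM3A, a demethylase of lysine 9 of histone H3 that HIF induces (ENSG00000115548, chromosome 2, 86440647 to 86492716, plus strand), was at 29.03, 28.03 and 31.99 CPM in control libraries and at 36.004, 34.97 and 40.93 CPM in fluoxetine libraries. The groups did not overlap. The log2 fold change was 0.33 (SE 0.10, edgeR adjusted p = 0.0557), just short of the threshold. Without control replicate 3 it passed, at 0.35 (edgeR adjusted p = 0.0260), in the same fit that called 23.0% of all tested genes. Leaving out any other library did not bring it past the threshold, and without fluoxetine replicate 3 it was 0.23 (edgeR adjusted p = 0.290). In all, 3 of the 14 alternatives called KDM3A. Of its relatives, JMJD1C rose by 0.56 (edgeR adjusted p = 0.0365) with overlapping groups and lost the call in 4 alternatives, and KDM3B had a log2 fold change of 0.02 (edgeR adjusted p = 0.933).

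NDRG1 (ENSG00000104419, chromosome 8, 133237171 to 133302022, minus strand) was at 30.1, 29.02 and 28.9 CPM in the control libraries, against 48.6, 54.2 and 50.2 CPM with fluoxetine. The control libraries were nearly equal, with a coefficient of variation of 2.30%, and the fluoxetine libraries lay far above them. The log2 fold change was 0.80 (SE 0.09, edgeR adjusted p = 3.29e-04), and between 0.72 and 0.82 over the 14 alternatives, each of which called it. Of the other NDRG genes, 2 rose as well. NDRG4 went from 32.4 ± 2.03 to 60.3 ± 1.76 CPM (SD, n = 3 each, log2 fold change 0.90, edgeR adjusted p = 1.31e-04) and NDRG3 from 41.5 ± 1.08 to 53.5 ± 2.23 CPM (log2 fold change 0.36, edgeR adjusted p = 0.0160). NDRG3 lost the call in 4 alternatives, and NDRG2 was not called (log2 fold change 0.04, edgeR adjusted p = 0.890).

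**Figure D3:**
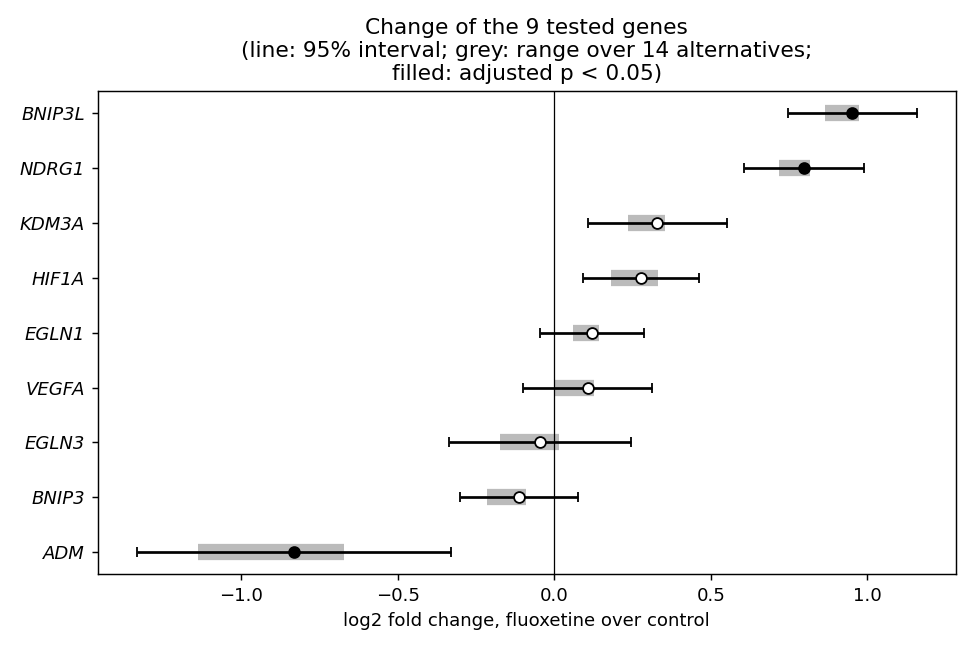
Log2 fold change of fluoxetine over control (horizontal axis) of the 9 tested genes, with its 95% interval from edgeR as a line and the range over 14 alternative settings as a grey band. BNIP3L at 0.95 and NDRG1 at 0.80 lie to the right and ADM at -0.83 to the left of 0, and open points mark genes that did not pass the adjusted threshold.

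Levels of different genes were set side by side as CPM per kilobase of merged exons in GENCODE release 29, a length that counts exons of rare transcripts too. In control cells HIF1A was the most abundant, at 39.2 ± 4.13, followed by BNIP3 at 31.4 ± 2.40 and EGLN1 at 9.18 ± 0.276 CPM per kb (SD, n = 3). Then came ADM, BNIP3L, NDRG1, VEGFA, KDM3A and EGLN3, from 5.20 to 1.81 CPM per kb, and CA9 last. The ranges of ADM and BNIP3L overlapped, as did those of VEGFA and KDM3A, and no other neighbours did. After fluoxetine BNIP3L, at 9.27 ± 0.0996 CPM per kb, and NDRG1, at 5.19 ± 0.294, stood above ADM, at 2.91 ± 0.904 (SD, n = 3 each). ADM, KDM3A and VEGFA then overlapped with their neighbours in the order.

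The partners and regulators of HIF-α were described from a list of 21 genes. It held HIF partners, hydroxylases and ligase subunits, and also coactivators, further regulators and the antisense RNAs HIF1A-AS1 and HIF1A-AS2. Of the list, 17 were tested, 1 rose and 1 fell (11.8% called, near the 13.1% of all tested genes). EPAS1, which encodes HIF-2α, was at 47.0, 47.9 and 45.4 CPM in the control libraries, against 92.2, 87.5 and 82.4 CPM with fluoxetine. The groups were far apart, with a log2 fold change of 0.90 (SE 0.08, edgeR adjusted p = 6.99e-05), past the threshold in all 14 alternatives. There were 0.233 ± 0.0285 reads of EPAS1 per read of HIF1A in control and 0.357 ± 0.0287 in fluoxetine libraries (SD, n = 3 each, exact permutation p = 0.1, two-sided, adjusted 0.133). RBX1, the RING subunit of the VHL ligase, fell by 0.42 on the log2 scale (edgeR adjusted p = 0.0399), a call that 5 of 14 alternatives lost. Of the other subunits of this ligase, ELOC just missed the threshold (log2 fold change -0.36, edgeR adjusted p = 0.0523). ELOB (-0.23, adjusted p = 0.345) and CUL2 (0.06, adjusted p = 0.703) were not called by the same test. VHL itself was not called (log2 fold change -0.12, edgeR adjusted p = 0.470), nor was ARNT (0.24, adjusted p = 0.125), HIF1AN, the asparagine hydroxylase of HIF-α (0.04, adjusted p = 0.785), or EGLN2 (0.02, adjusted p = 0.986), by the same test. HIF3A was hardly counted. The median log2 fold change of the 17 genes was 0.06.

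A list of 43 further hypoxia-responsive genes outside glycolysis held 39 tested genes, of which 9 rose and 3 fell (30.8% called, against 13.1% of all tested genes), with a median log2 fold change of 0.16. The largest rises were those of the transcriptional repressors BHLHE41 and BHLHE40, by 1.22 and 1.15 (log2 units, edgeR adjusted p = 5.83e-04 and 1.51e-05), and these were the 2 genes of the list past a fold change of 2. HMOX1, the heme oxygenase that is also a target of NRF2, rose by 0.91 (adjusted p = 0.00117), and STC2, a secreted glycoprotein, by 0.50 (adjusted p = 0.00103), both from edgeR. IGFBP3, a binding protein of insulin-like growth factors, fell by 0.88 on the log2 scale (edgeR adjusted p = 2.18e-04). These 5 genes were called in all 14 alternatives. The other rises were less firm. ZNF395 lost the call in 11 of the 14 alternatives, STC1 in 6, and MXI1, P4HA2 and WSB1 in 4 each. The secreted peptide EDN1, endothelin-1, also fell by 0.60 on the log2 scale, and the hydroxylase JMJD6 fell by 0.31. EDN1 lost the call without fluoxetine replicate 1 and JMJD6 in 4 alternatives.

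Glycolytic genes that HIF induces were split as well. Of 20 tested genes, 5 rose and 3 fell (40% called, against 13.1% of all tested genes), and the median log2 fold change was -0.07. The aldolase ALDOC rose by 1.48, PFKFB4 by 1.24 and the enolase ENO2 by 0.91 (log2). The glucose transporter SLC2A3 rose by 0.70 and PDK1, a pyruvate dehydrogenase kinase, by 0.59 (log2). Over all 5 the edgeR adjusted p-values ran from 5.85e-05 to 0.00163. These 5 were called in all 14 alternatives. TPI1 fell by 0.33 on the log2 scale, HK2 fell by 0.31 and LDHA fell by 0.26, and 0 of these 3 falls were called without control replicate 2, without fluoxetine replicate 1 or without fluoxetine replicate 3.

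Among 16 relatives of the 10 genes, 15 were tested, 5 rose and 1 fell (40% called, against 13.1% of all tested genes), and the median was 0.14. EPAS1, EGLN2 and HIF3A are also in the list of HIF partners and regulators, and CA12 in that of further hypoxia-responsive genes. Besides EPAS1, NDRG4, NDRG3 and JMJD1C, ADM2, which encodes intermedin, a paralogue of adrenomedullin, rose from 18 counts in each control library to 23, 25 and 31 counts in fluoxetine replicates 1, 2 and 3. Its log2 fold change was 0.98 (edgeR adjusted p = 0.0459), in the direction opposite to ADM, but 9 of 14 alternatives lost the call. VEGFB and VEGFC were not called, with log2 fold changes of 0.53 and 0.14 (edgeR adjusted p = 0.235 and 0.513). The count ratio of VEGFA to ADM was 2.63 ± 0.668 in control and 5.07 ± 1.12 in fluoxetine libraries (SD, n = 3 each, exact permutation p = 0.1, two-sided, adjusted 0.133).

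**Figure D4:**
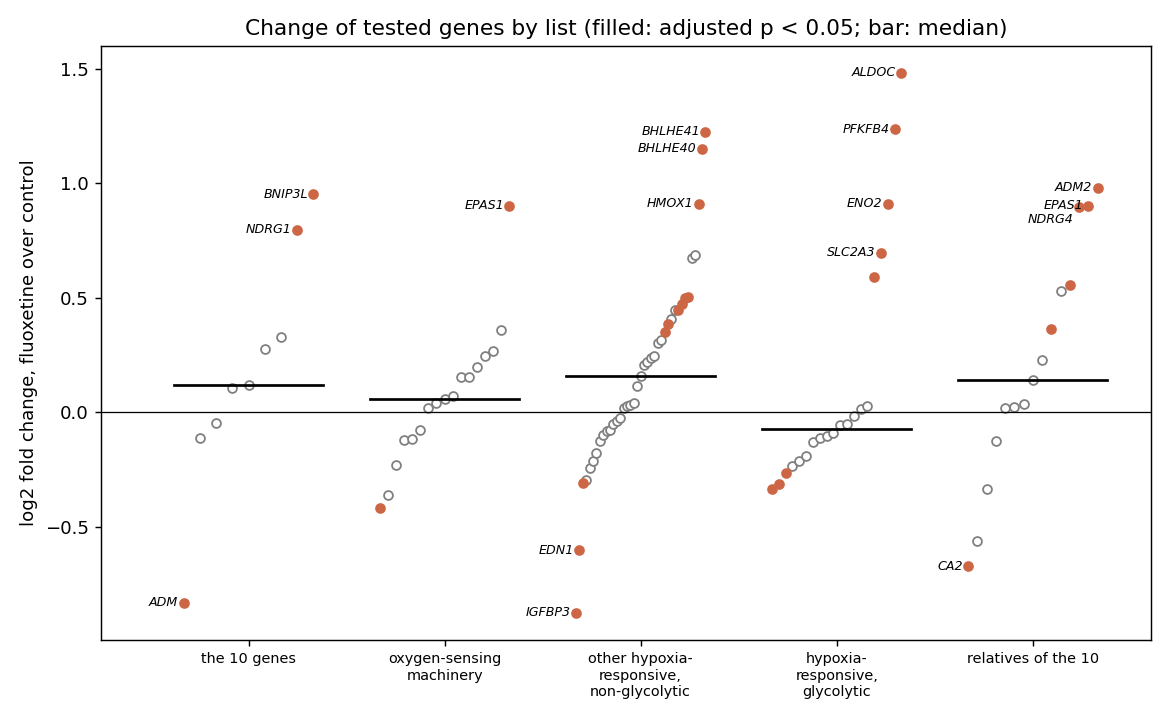
Log2 fold change of fluoxetine over control (vertical axis) of every tested gene of the 10 and of 4 further lists, with filled points for an adjusted p-value under 0.05 and a bar at the median. Called genes lie on both sides of 0 in every list, and the medians lie between -0.07 and 0.16.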

How the data were processed

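RNA sequencing was done on 3 control and 3 fluoxetine samples of H460 cells. The authors deposited a table of raw counts per gene, not normalized, for 31762 genes. Their processing notes name fastp 0.20.0, HISAT2 2.1.0, HTSeq 0.10.0 and DESeq2 1.18.1. The strand setting, genome build and annotation are not given in the sources used here, and the coordinates of all 10 genes equal those of GENCODE release 29 on GRCh38. The table also holds the authors' log2 fold changes, p-values and adjusted p-values, which were not used, and pathway annotation. The reads of overlapping genes and copies depend on the counting, which was not redone.

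Genes low in counts were removed with filterByExpr, and the 15646 left were tested with edgeR 4.0.16 (TMM, quasi-likelihood test, Benjamini-Hochberg adjustment) in R 4.3.3. Gene counts covered 16157507 to 27823667 per library, and limits from counting cover counting error only. On simulated counts with 200 genes changed 2-fold, 98.5% were recovered, with 9 false calls among 15444 genes in all. The changed genes were drawn from those above 5 CPM on average, so this share does not describe smaller changes or lower genes. All libraries of a group differed by more than sampling noise, with chi-square per degree of freedom of 3.72 to 24.2. Alternatives were DESeq2 1.42.0, limma-voom (limma 3.58.1), other size factors and filters, thinning to equal depth, a replicate block and leaving out each library. The 10 genes and the gene lists were chosen with earlier results of these data known. Named were the 10 genes, up to 5 called genes of smallest p-value in each further list, the 3 genes most like HIF1A and overlapping genes. Other genes given with values were chosen after their values were seen. These were receptors, partners, ligase subunits and relatives that were not called, and CA2, EDN1, JMJD6, TPI1, HK2 and LDHA. So were ZNF395, STC1, MXI1, P4HA2 and WSB1. A result of the mitophagy list is not reported here.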

Additional observations from a re-analysis of the deposited data

How the results depend on the processing

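BNIP3L, NDRG1 and EPAS1 kept their direction and their call in all 14 alternatives. The calls near the threshold (HIF1A, KDM3A, ADM) did not keep their side of it. Over all genes, 1214 were higher and 833 lower. Leaving out 1 library gave 409 to 1627 higher and 163 to 2006 lower, and testing without the filter gave 1516 lower. No label says that replicate numbers pair the samples, and the correlations of deviations did not settle it. For equal numbers they were 0.0297, 0.116 and 0.392, the last the highest of all pairs. Control replicate 1 correlated best with fluoxetine replicate 2 (0.320). A fit with the replicate number as a block gave 2231 higher and 1787 lower, 25.7% of all tested genes. With the replicate block 4 of the 10 genes were higher, HIF1A and KDM3A among them. So were 3 oxygen-sensing, 14 other hypoxia-responsive and 2 mitophagy genes, with 2 oxygen-sensing genes lower.

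With library size alone, 4 of the 10 genes and 2 mitophagy genes were higher, and 0 mitophagy and 0 relatives were lower. Over all 15646 tested genes, that setting gave 1298 higher and 721 lower. Lower oxygen-sensing genes numbered 2 with DESeq2, with its size factors and without the filter, and 0 at equal depth. Without the filter, 5 glycolytic genes were lower. Lower relatives numbered 0 with DESeq2, limma-voom and equal depth, as did lower mitophagy genes with limma-voom. Over all genes, lower calls numbered 1140 with DESeq2, 988 with its size factors, 858 at equal depth and 758 with limma-voom. Leaving out each library gave 2 to 4 higher and 0 to 1 lower among the 10 genes, 1 to 2 and 0 to 3 among oxygen-sensing, 4 to 10 and 1 to 3 among other hypoxia-responsive, 5 and 0 to 6 among glycolytic genes, 2 to 4 and 0 to 1 among relatives, and 0 to 1 in both directions among mitophagy genes. For EGLN3 leaving out 1 library gave log2 fold changes from -0.17 to 0.014, the last, without fluoxetine replicate 1, reversed. The causes were not tested. With 3 libraries a group, changes the size of those of EGLN1 and VEGFA cannot be told from none.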

Other observations

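The deposited annotation places 96 genes of the table in the HIF-1 signaling pathway, among them HIF1A, EGLN1, EGLN3 and VEGFA. This set was taken up after the data had been seen. Of its 78 tested genes, edgeR called 12 higher and 6 lower with fluoxetine (23.1%), against 13.1% of all tested genes, with a median log2 fold change of 0.07.

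The genes whose levels followed HIF1A most closely over the 6 libraries were TIA1, DNAJC10 and GLCE. The root mean square difference from HIF1A, on log2 CPM centred on each gene's mean, was 0.0115 for TIA1, 0.0117 for DNAJC10 and 0.0162 for GLCE, against a median of 0.242 over all tested genes. DNAJC10 and GLCE passed the threshold, with log2 fold changes of 0.27 and 0.29 (adjusted p = 0.0456 and 0.0353 from edgeR), while TIA1, at 0.28, did not (adjusted p = 0.0679). HIF1A itself had a log2 fold change of 0.28. The genes were picked for the smallest difference over all 6 libraries, the step between the groups included. Their small differences and similar fold changes follow from that choice.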
